A study of Mus musculus with 36 samples.

Results

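The mitochondrial chromosome encodes 37 of the 56748 genes in the count table, and these 37 genes, taken as every gene whose name begins with mt-, were followed in splenic CD4+ T cells through activation, exposure to regulatory T cells (Treg) and loss of the heterochromatin proteins HP1a or HP1g. They were 13 protein-coding genes, 2 rRNA genes and 22 tRNA genes, all on the M chromosome of GRCm39, which is 16299 bases long. Of the protein-coding genes, 7 encode subunits of complex I, 1 a subunit of complex III, 3 subunits of complex IV and 2 subunits of complex V.

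The mitochondrial genome is transcribed from both strands into long precursors, from which the excision of tRNAs releases the mRNAs and rRNAs. Its mRNAs encode core subunits of the respiratory chain and of the ATP synthase, whose other subunits are encoded in the nucleus and imported. Quiescent T cells depend largely on oxidative phosphorylation, and both glycolysis and mitochondrial mass increase when naive T cells are activated.

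Libraries were made from 3 kinds of CD4+ T cells, each from WT and knockout (KO) mice of both an HP1a and an HP1g line, which gave 12 groups of 3 libraries. HP1a and HP1g bind methylated histone H3K9 in heterochromatin. In the HP1a line a floxed Hp1a gene was excised with CMV-cre, so that all cells of the Hp1a-/- mice lacked it, and Hp1a+/+ littermates were the controls. In the HP1g line a floxed Hp1g gene was deleted by Cd4-cre, which acts in the T cell lineage only, and floxed mice without Cre were the controls. Both lines had a mixed genetic background, and sex-matched littermates of 6 to 12 weeks were used. Naive cells were CD4+ CD62L+ CD44-/low cells enriched from the spleen with a kit. For the other groups, such naive conventional T cells (Tconv) were injected, alone or together with WT Treg expanded ex vivo from B6 Foxp3-Thy1.1 mice, into irradiated C57BL/6 hosts given equal parts of C57BL/6 and B6D2F1 marrow. The Tconv bearing the T cell receptor chain Vβ6, which recognise the B6D2F1 cells, were sorted from the spleen 3 weeks later. Hosts were WT in every group, and Treg carried no HP1 deletion. The labels do not say that the replicates of a group came from separate animals, so that p-values measure the spread between these libraries, which may be partly technical.

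The 35 libraries compared held 37029519 to 63042245 estimated counts (median 46844690), in which 20160 to 23368 genes were detected. As in the study, the third HP1g KO library with Treg did not enter the comparisons. Cbx5, which encodes HP1a, ranged from 18.5 to 25.0 CPM (counts scaled to a common library size) in WT against 9.20 to 12.3 CPM in KO naive cells of the HP1a line, from 26.4 to 30.3 against 13.8 to 16.1 CPM in Tconv, and from 34.2 to 61.8 against 15.4 to 19.7 CPM in Tconv with Treg. Cbx3, which encodes HP1g, ranged in the HP1g line from 106.6 to 199 CPM in WT against 64.5 to 80.8 CPM in KO naive cells, from 86.6 to 106 against 64.7 to 73.6 CPM in Tconv, and from 79.1 to 104 against 60.5 to 61.4 CPM in Tconv with Treg. The T cell markers fitted the label in every library, with a summed level of 6578 to 10141 CPM over 8 genes. Naive cells were enriched with a kit, while Tconv were sorted as Vβ6+ cells. Activation, the graft, the selection of cells and the set of libraries therefore cannot be told apart.

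Some neighbouring mitochondrial genes share bases, and the kit does not mark strand, so that a read within a shared stretch cannot be assigned to one gene alone. Along the whole length of the 9 members on the minus strand, mt-Nd6 and mt-Ts1 among them, reads may likewise come from RNA of either strand. The longest shared stretches are shown here with 12 bases on either side. Most shorter ones, such as chrM:8607 in mt-Atp6 and mt-Co3, are left out. The sequences shown are on the plus strand of GRCm39 (5′ to 3′), with the shared bases in capitals. The first holds the start of mt-Atp6 within the end of mt-Atp8 (43 bases, chrM:7915-7981), the next the start of mt-Nd4 within the end of mt-Nd4l (7 bases, chrM:10155-10185), and the last the facing ends of mt-Nd5 and mt-Nd6, which lie on opposite strands (14 bases, chrM:13540-13577). The last sequence is the gene of mt-Ts1, the most abundant of the tRNAs here, which lies on the minus strand (chrM:6870-6938) and shares its 3 final bases, in capitals, with the end of mt-Co1.
mt-Atp8 and mt-Atp6: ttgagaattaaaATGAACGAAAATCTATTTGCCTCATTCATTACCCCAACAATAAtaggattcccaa
mt-Nd4l and mt-Nd4: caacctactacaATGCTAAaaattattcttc
mt-Nd5 and mt-Nd6: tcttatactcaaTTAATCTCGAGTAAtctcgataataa
mt-Ts1: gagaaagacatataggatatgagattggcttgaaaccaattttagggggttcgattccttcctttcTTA

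Several members also have identical or near-identical copies in the nuclear genome, of which those named with a share here lie next to each other on the minus strand of chromosome 1 (chr1:24650616-24655278), and the counts of a member were split between it and its copy. Over the 35 libraries the copy held a median of 38.2% of the summed counts for mt-Co3 (copy Gm28437, range 36.4% to 43.4%), 37.4% for mt-Nd4l (copy Gm10222, range 4.57% to 61.1%), 34.5% for mt-Co2 (copy Gm28661, range 32.1% to 37.4%), 18.2% for mt-Co1 (copy Gm29216, range 11.2% to 34.1%), 15.1% for mt-Nd3 (copy Gm28438, range 6.03% to 22.8%) and 11.05% for mt-Atp6 (copy Atp6-ps, range 9.30% to 13.2%). The share of Gm29216 had a median of 15.5% in naive cells, 18.6% in Tconv and 20.9% in Tconv with Treg, so that for mt-Co1 the split itself moved with the conditions. In the same order the medians were 16.0%, 12.6% and 15.3% for Gm28438 and 38.8%, 34.1% and 37.0% for Gm10222. The median split of mt-Nd3 and mt-Nd4l thus moved as well. Further copies held a median of at most 0.578% of the summed counts, the value of Gm28439, an identical copy of part of mt-Nd4 on chromosome 1. The others were Gm13340, Gm13341 and Gm13339 on chromosome 2 and Gm4076 on chromosome 13. Gm28437, Gm10222, Gm28661 and Atp6-ps are identical to mt-Co3, mt-Nd4l, mt-Co2 and mt-Atp6 over the aligned bases, and Gm29216 and Gm28438 differ from mt-Co1 and mt-Nd3 at a single base. That base is in capitals in the sequences that follow, where mt-Co1 has A1066T in its copy (1 difference in 483 aligned bases) and mt-Nd3 has T3C (1 difference in 345), with positions counted from 1 at the 5′ end of the mitochondrial gene. The mitochondrial windows are chrM:6390-6413 and chrM:9459-9481, and those of the copies, read on the minus strand, are chr1:24655246-24655269 and chr1:24652178-24652200.
mt-Co1: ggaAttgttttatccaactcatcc
Gm29216: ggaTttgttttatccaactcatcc
mt-Nd3: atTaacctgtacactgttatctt
Gm28438: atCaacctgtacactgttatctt

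The level per length spanned a wide range among the protein-coding and rRNA members. Counts were divided by the whole length of each gene, shared stretches included. What part of these differences lies in transcript levels was not tested. In mean CPM per kb of gene over the 35 libraries, mt-Atp6 (chrM:7927-8607), the proton channel subunit of the ATP synthase, stood at 3525 ± 973 (SD), and the overlapping mt-Atp8 (chrM:7766-7969), its small membrane subunit, at 491 ± 117. The catalytic subunits of cytochrome c oxidase, complex IV, stood at 1556 ± 374 for mt-Co1 (chrM:5328-6872) and 1255 ± 416 for mt-Co2 (chrM:7013-7696), and the structural subunit mt-Co3 (chrM:8607-9390) at 2398 ± 635. The cytochrome b of complex III, mt-Cytb (chrM:14145-15288), stood at 1283 ± 316 CPM per kb. The complex I subunits spanned from 52.5 to 995 CPM per kb. Their mean levels were 995 ± 314 CPM per kb for mt-Nd1 (chrM:2751-3707), 557 ± 212 for mt-Nd4 (chrM:10167-11544), 396 ± 162 for mt-Nd2 (chrM:3914-4951), 358 ± 148 for mt-Nd6 (chrM:13552-14070), the single protein-coding member on the minus strand, 263 ± 59.1 for mt-Nd5 (chrM:11742-13565), 245 ± 82.1 for mt-Nd3 (chrM:9459-9806) and 52.5 ± 15.5 for mt-Nd4l (chrM:9877-10173). The large rRNA mt-Rnr2 (chrM:1094-2675) stood at 2234 ± 1111 CPM per kb and the small rRNA mt-Rnr1 (chrM:70-1024) at 330 ± 195. As the SDs show, many neighbours in this order, such as mt-Co1 with mt-Cytb and mt-Co2, did not differ beyond their spread. Adding the counts of the nuclear copies raised the mean 1.63-fold for mt-Co3, 1.603-fold for mt-Nd4l and 1.53-fold for mt-Co2, which brought mt-Co3 (3915 CPM per kb) next to mt-Atp6 (3961 CPM per kb).

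**Figure D1:**
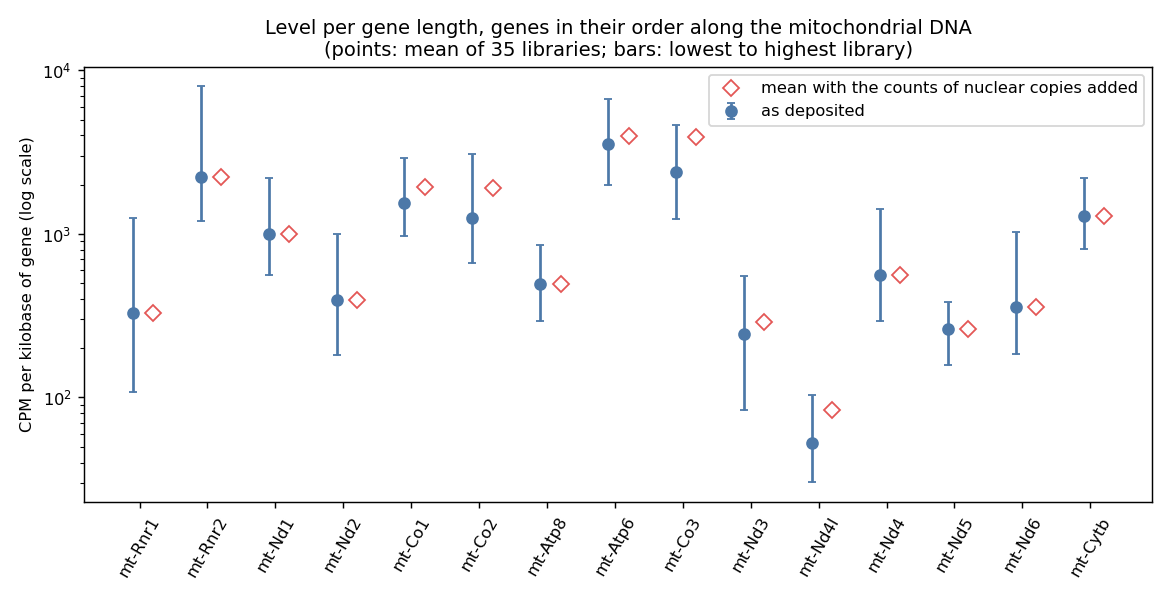
Level per length of each protein-coding and rRNA member (CPM per kb of gene, log axis) in their order along the mitochondrial DNA: filled points are means of 35 libraries, bars run from the lowest to the highest library, and open diamonds are means with the counts of the nuclear copies added. The means span from 52.5 (mt-Nd4l) to 3525 CPM per kb (mt-Atp6), and the diamonds stand clearly above the points for mt-Co3, mt-Nd4l and mt-Co2.

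The tRNA genes were near the detection limit. All 22 together held 118 to 663 counts in a library, or 2.63 to 17.5 CPM, and mt-Ts1 alone had a mean of 3.36 CPM (range 1.74 to 12.5). No other tRNA reached a mean of 0.4 CPM, and mt-Tf was at 0 in 34 of the 35 libraries, with 1 count in the other. In the comparisons and combined fits 2 to 5 tRNAs passed the filter on low counts, and none of them changed at an adjusted p under 0.05 by the quasi-likelihood test of edgeR, and the largest number of counts any tRNA reached was 483, for mt-Ts1.

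All members together took between 0.888% and 3.84% of a library's counts, and this share was lower in Tconv than in naive cells. The 12 naive libraries held 1.58% to 2.20% (median 1.69%), and the 12 Tconv libraries held 1.11% to 1.78% (median 1.21%). The 11 libraries of Tconv with Treg held 0.888% to 3.84% (median 1.74%). The ranges of naive cells and Tconv overlapped through 2 libraries, the first HP1a KO Tconv (1.65%) and the first HP1g KO Tconv (1.78%). In these bulk samples, fewer mitochondria per cell, less RNA per mitochondrion and more nuclear-encoded RNA cannot be told apart, nor can fewer cells of a type and less RNA per cell.

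By group, the share in naive cells was 1.73% ± 0.0825 (SD) in HP1a WT, 1.73% ± 0.120 in HP1a KO, 1.80% ± 0.351 in HP1g WT and 1.67% ± 0.0510 in HP1g KO. In Tconv it was 1.22% ± 0.0385 in HP1a WT, 1.39% ± 0.234 in HP1a KO, 1.17% ± 0.0414 in HP1g WT and 1.33% ± 0.389 in HP1g KO. In Tconv with Treg it was 2.50% ± 1.17 in HP1a WT, 1.90% ± 0.169 in HP1a KO and 1.30% ± 0.227 in HP1g WT. The 2 libraries of HP1g KO Tconv with Treg held 1.51% and 0.888%. In HP1a WT Tconv with Treg the 3 libraries held 1.91%, 1.74% and 3.84%, so that the third library set the mean and the spread, and without it the mean of that group was 1.82%. In that library the rRNAs also reached 57.8% of the mitochondrial mRNA counts, against 19.9% to 38.2% in the other 34 libraries. Its nuclear-retained RNAs Malat1 and Neat1 summed to 9982 CPM, against 5919 and 4539 CPM in the other libraries of its group, and its agreement with its group was the lowest of all (median correlation of log counts 0.982). In naive HP1g WT cells the second library held 2.20%, against 1.61% and 1.58%. The part of these differences between libraries in the results below was not tested beyond leaving each library out.

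**Figure D2:**
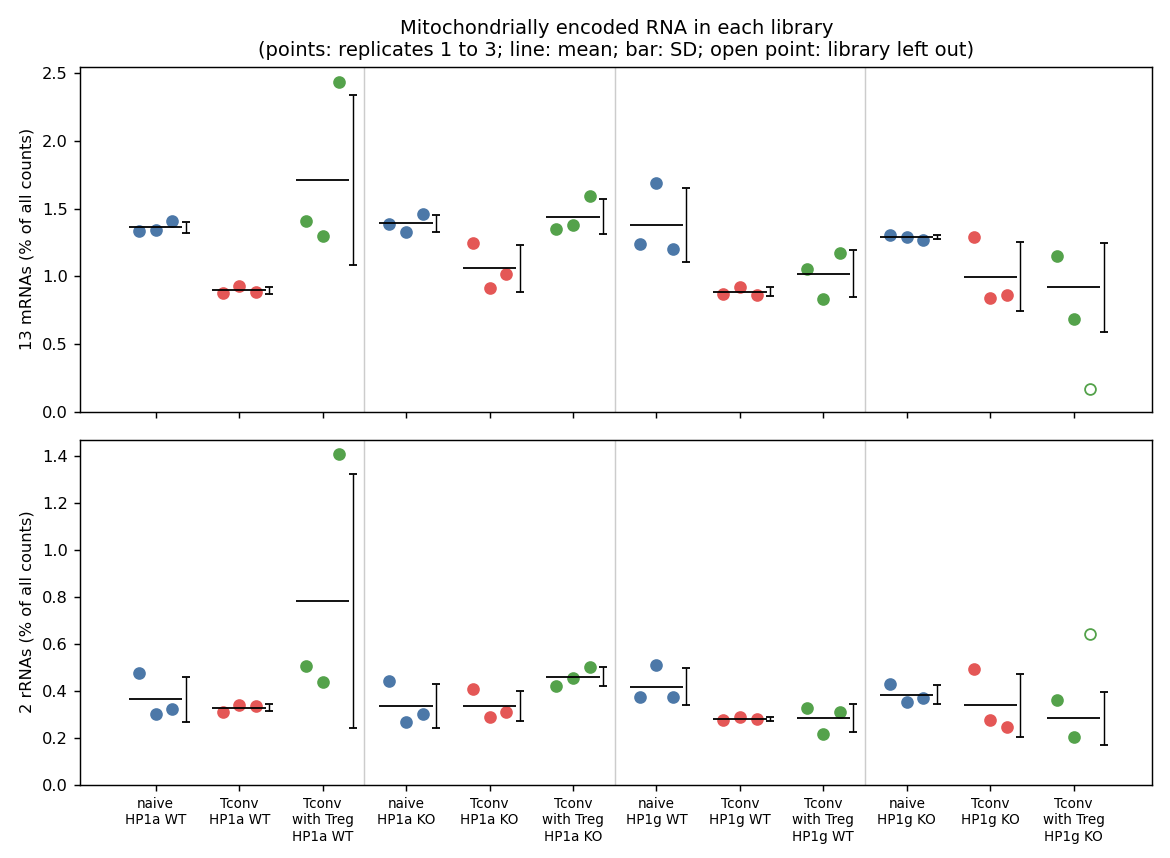
Percent of each library's counts in the 13 mitochondrial mRNAs (upper panel) and the 2 rRNAs (lower panel), by group, with points for replicates 1 to 3, the mean as a line and the SD as a bar; the open point is the library left out. The third library of HP1a WT Tconv with Treg is the highest in both panels, at 2.44% and 1.41%, and the library left out has the lowest mRNA share (0.165%) beside an rRNA share of 0.640%.

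Tconv sorted 3 weeks after the graft were compared with naive cells of the same line and genotype. This difference holds activation, the graft and the selection of cells together. Most mitochondrial mRNAs were lower in Tconv, at 0.613-fold (mt-Nd2) to 0.808-fold (mt-Co2) of the naive CPM over both lines and genotypes, and no member passed the test in the other direction. In 1 fit over all naive and Tconv libraries, in which each line and genotype kept its own baseline, 14 of the 15 mRNA and rRNA members fell at an adjusted p under 0.05 (any fold), where 29.6% of all 18027 genes tested fell. Their log2 fold changes ran from -0.71 to -0.16 (median -0.48), against a median of -0.02 over all genes. The member that did not pass was mt-Rnr2, the large rRNA, at -0.16 ± 0.13 (SE, adjusted p = 0.292). Leaving out any 1 of the 24 libraries left 14 or 15 members past the threshold.

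Among the members, mt-Co3 of complex IV had the lowest adjusted p over the 4 strata. For mt-Co3 the HP1a WT libraries read 1923, 2118 and 2345 CPM in naive cells against 1420, 1619 and 1425 CPM in Tconv. In HP1g KO they read 2073, 2466 and 2096 CPM against 1781, 1469 and 1314 CPM. Every naive library was above every Tconv library in both groups. Over the 4 strata mt-Co3 fell by 0.50 ± 0.07 on the log2 scale (0.705-fold, adjusted p = 1.38e-06), mt-Co1 by 0.41 ± 0.08 and mt-Co2 by 0.31 ± 0.09. For the ATP synthase, mt-Atp6 fell by 0.52 ± 0.09 and mt-Atp8 by 0.52 ± 0.09. The naive HP1a WT libraries held 94.8, 106 and 142 CPM of mt-Atp8 and the Tconv libraries 75.3, 72.3 and 62.8 CPM, with no overlap.

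Within complex I, mt-Nd3, mt-Nd2 and mt-Nd5 fell by similar amounts. For mt-Nd5 the HP1a WT libraries read 527, 515 and 580 CPM in naive cells and 349, 349 and 348 CPM in Tconv (SD 0.827 CPM), with no overlap. This was a change of -0.63 ± 0.08 (adjusted p = 0.000407) in HP1a WT and of -0.50 ± 0.09 (adjusted p = 3.1e-05) over the 4 strata. For mt-Nd2 the HP1g WT libraries read 454, 879 and 455 CPM in naive cells against 284, 279 and 243 CPM in Tconv, so that the groups did not overlap but the second naive library stood apart. Over the 4 strata mt-Nd2 fell by 0.71 ± 0.13 and mt-Nd3 by 0.55 ± 0.08 (adjusted p = 2.78e-06), while mt-Nd1, mt-Nd4, mt-Nd6 and mt-Nd4l fell by 0.41 ± 0.11, 0.47 ± 0.12, 0.44 ± 0.11 and 0.41 ± 0.14. The complex III member mt-Cytb read 1511, 1553 and 1616 CPM in naive and 1071, 1061 and 1094 CPM in Tconv cells of HP1a WT, again without overlap, and fell by 0.48 ± 0.09 over the 4 strata.

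Of the 2 rRNAs, which are transcribed ahead of the mRNAs on the plus strand, mt-Rnr1 passed over the 4 strata and mt-Rnr2 did not. The difference between them was not tested. For mt-Rnr1 the HP1g WT libraries read 382, 549 and 362 CPM in naive cells against 194, 201 and 177 CPM in Tconv, with no overlap, and over the 4 strata it fell by 0.62 ± 0.16 (adjusted p = 0.00188). In HP1a WT mt-Rnr1 overlapped, at 505, 233 and 270 against 229, 275 and 286 CPM. For mt-Rnr2 the HP1a WT libraries read 4067, 2476 and 2766 CPM in naive cells and 2902, 3256 and 3200 CPM in Tconv, which overlapped (log2 fold change 0.01 ± 0.18). In HP1g WT mt-Rnr2 did not overlap, at 3287, 5455 and 3372 against 2759, 2853 and 2656 CPM. The first naive libraries of HP1a WT and KO had an rRNA count of 35.5% and 31.9% of the mRNA count, against 19.9% to 22.8% in the other naive HP1a libraries.

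**Figure D3:**
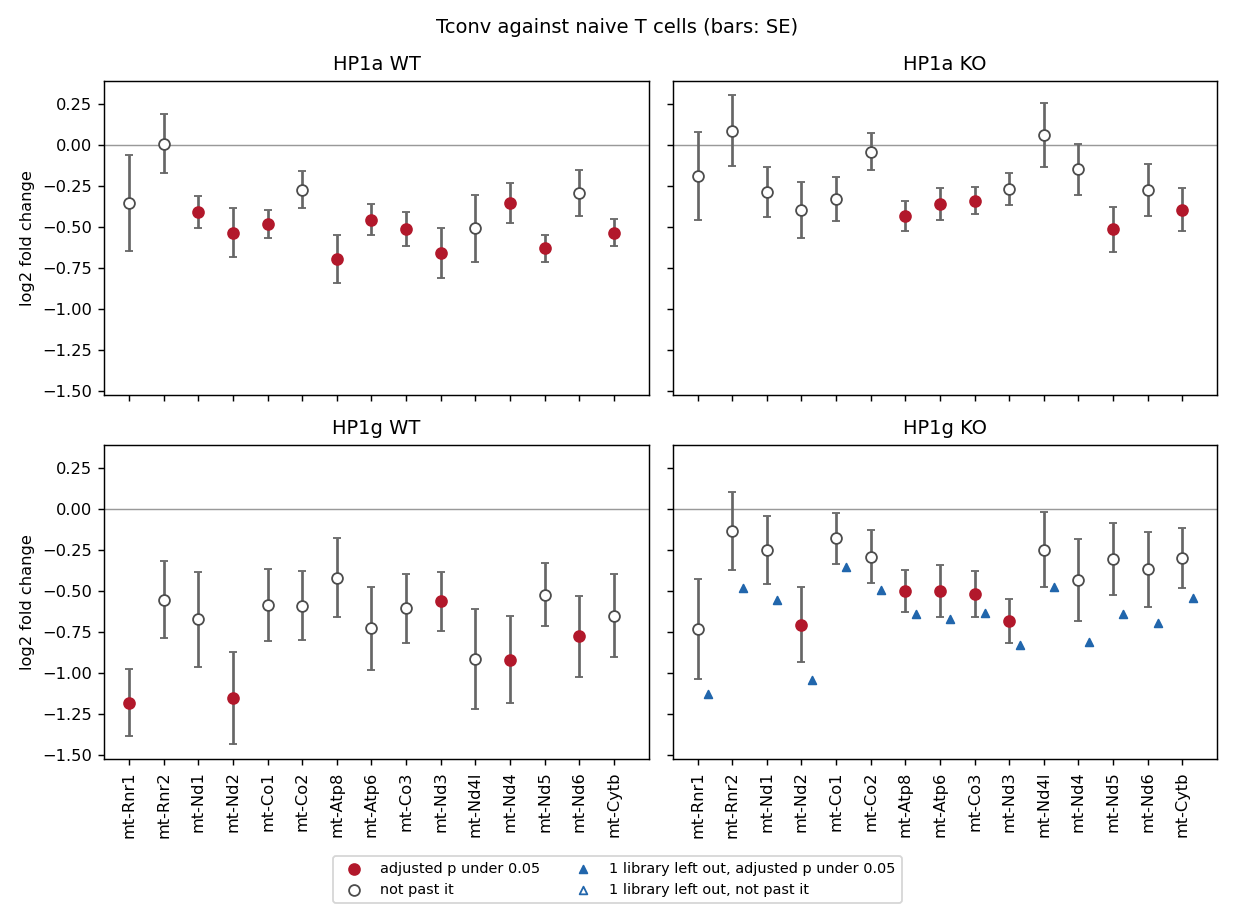
Log2 fold change of each mRNA and rRNA member in Tconv against naive cells, with bars of 1 SE, in each line and genotype; filled red points have an adjusted p under 0.05, open points do not, and the triangles in the HP1g KO panel leave out the first HP1g KO Tconv library. Nearly all points lie below 0, with medians of -0.48, -0.29, -0.65 and -0.37 in HP1a WT, HP1a KO, HP1g WT and HP1g KO, and the triangles have a median of -0.64.

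In the separate comparisons of 3 against 3 libraries, the counts differed more than the fold changes. In HP1a WT 10 of 15 members fell (21.4% of all genes tested fell), with a median of -0.48. In HP1a KO 5 of 15 fell (17.8% of all genes), namely mt-Atp8, mt-Atp6, mt-Co3, mt-Nd5 and mt-Cytb, with a median of -0.29. In HP1g WT 5 of 15 fell (13.2% of all genes), namely mt-Rnr1, mt-Nd2, mt-Nd3, mt-Nd4 and mt-Nd6, with a median of -0.65. Of these, mt-Rnr1 (-1.18 ± 0.20, adjusted p = 0.00336) and mt-Nd2 (-1.15 ± 0.28, adjusted p = 0.0168) also passed a log2 fold change of 1, which 8.55% of all genes did downwards. In HP1g KO 5 of 15 fell (17.7% of all genes), namely mt-Nd2, mt-Atp8, mt-Atp6, mt-Co3 and mt-Nd3, with a median of -0.37. The Tconv libraries lay wholly below the naive libraries for 11 of 15 members in HP1a WT (28% of all genes), 6 in HP1a KO (25.9%), 15 in HP1g WT (24.6%) and 6 in HP1g KO (25.5%). Elsewhere none of the members passed the fold of 1 as well, in HP1a WT (10.2% of all genes did downwards), HP1a KO (7.24%), HP1g KO (7.3%) or over the 4 strata (9.55%). Single libraries set these counts in the HP1g line. Without the second naive HP1g WT library, 11 of 15 members fell in HP1g WT (17.4% of all genes) with a median of -0.37, and none passed the fold of 1. Without the first HP1g KO Tconv library, 15 of 15 fell in HP1g KO (24% of all genes) with a median of -0.64. Its erythroid markers summed to 3386 CPM, its naive T cell markers to 1921 CPM and Malat1 and Neat1 to 5119 CPM, each the highest of its group. The first HP1g WT Tconv library had erythroid markers of 4618 CPM and a mitochondrial share of 1.14%. The part of these in the result was not tested.

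The nuclear genes for subunits of the same complexes were compared as well. Of 82 nuclear genes for subunits of the respiratory chain and ATP synthase, 77 were tested in each separate comparison, and in HP1a WT 60 rose and 0 fell, with a median log2 fold change of 0.45, where 24.3% of all genes rose. In HP1a KO 52 rose and 1 fell (median 0.36, 22.9% of all genes rose), and in HP1g KO 15 rose and 0 fell (median 0.14, 23.4% of all genes rose), a share of 77 below that of all genes. In HP1g WT 0 passed at an adjusted p under 0.05 in edgeR, 2 had an unadjusted p under 0.05 (42.5% of all genes did), 73 of 77 were below 0, and the median was -0.37. Without the second naive HP1g WT library that median was 0.09, with 12 rising and 3 falling. Over the 4 strata 15 of 78 rose and 1 fell (median 0.12), again a smaller share than the 30.9% of all genes that rose. The medians of the mitochondrial and the nuclear subunits differed in sign in HP1a WT, HP1a KO and HP1g KO and had the same sign in HP1g WT. The difference between the 2 lists was not tested.

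**Figure D4:**
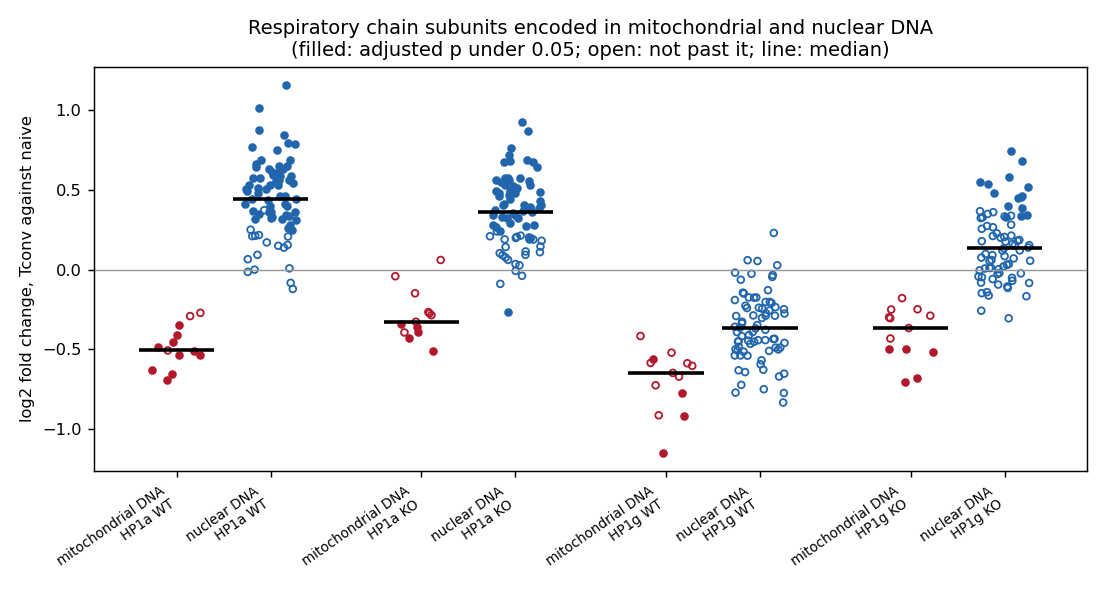
Log2 fold change in Tconv against naive cells of the respiratory chain and ATP synthase subunits encoded in mitochondrial DNA (13 genes, red) and in nuclear DNA (77 genes, blue), in each line and genotype; filled points have an adjusted p under 0.05 and lines are medians. The nuclear medians are 0.45, 0.36, -0.37 and 0.14 in HP1a WT, HP1a KO, HP1g WT and HP1g KO, while all 4 mitochondrial medians lie below 0.

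Of 42 nuclear genes for the transcription, replication and RNA processing of the mitochondrial genome, 29 fell and 1 rose over the 4 strata, with a median of -0.33, where 29.6% of all genes fell. In the separate comparisons 14 of 42 fell in HP1a WT (21.4% of all genes fell), 13 of 41 in HP1a KO (17.8%), 12 of 41 in HP1g WT (13.2%) and 18 of 42 in HP1g KO (17.7%), and 0, 1, 1 and 1 rose. Polg2, the accessory subunit of the mitochondrial DNA polymerase, changed by -1.06 ± 0.20 in HP1a WT (adjusted p = 0.00307) and -1.04 ± 0.18 in HP1a KO. Twnk, the mitochondrial DNA helicase, changed by -1.12 ± 0.13 in HP1g KO (adjusted p = 0.000282), and Ppargc1b, a coactivator of genes of mitochondrial biogenesis, by -1.005 ± 0.18 in HP1a WT and -1.12 ± 0.20 in HP1g KO. Mrm2, a methyltransferase of the large mitochondrial rRNA, changed by -1.26 ± 0.27 in HP1g WT. 2 genes central to transcription, chosen after their values were seen, were the mitochondrial transcription factor Tfam (-0.39 ± 0.07 over the 4 strata, adjusted p = 3.1e-05) and the RNA polymerase Polrmt (-0.35 ± 0.09, adjusted p = 0.00222). Tfam did not pass in HP1g KO (-0.15 ± 0.10, adjusted p = 0.254), nor did Polrmt in HP1g WT (-0.10 ± 0.28, adjusted p = 0.818). Each passed in the other separate comparisons. Beside these results, the naive T cell markers summed to 5700 to 7829 CPM in naive cells and 1033 to 1989 CPM in Tconv, the myeloid markers to 5.78 to 16.2 and 8.78 to 297 CPM, and the erythroid markers to 10.1 to 185 and 1.78 to 4618 CPM. The B cell markers summed to 564 to 825 CPM in naive cells and 92.2 to 217 CPM in Tconv, without overlap, of which Ighm alone ranged from 88.8 to 887 CPM over the 35 libraries, while Ms4a1 was at 0 in 8 libraries and reached at most 1.59 CPM. The markers of CD8 T or NK cells summed to 19.0 to 31.4 CPM in naive cells and 7.60 to 19.1 CPM in Tconv, and Malat1 and Neat1 to 2476 to 6479 CPM (median 4342) and 2664 to 5119 CPM (median 3372). The part of these markers in the result was not tested.

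Tconv recovered from hosts that also received Treg were then compared with Tconv recovered without them, to ask what the presence of Treg changed in the responding cells. These comparisons share the Tconv libraries with the preceding ones. All 15 mRNA and rRNA members had a higher mean in HP1a WT Tconv with Treg, and 14 of 15 in HP1a KO, but few of them passed the test, and in the HP1g line none did. In HP1a WT the log2 fold changes ran from 0.66 to 1.32 (median 0.88), and 1 of 15 rose (4.08% of all genes rose), which was mt-Nd5 at 0.75 ± 0.17 (adjusted p = 0.0417). The Treg libraries of this group lay wholly above the others for 13 of 15 members (14.7% of all genes), and none passed a log2 fold change of 1 with the test (3.54% of all genes did upwards). DESeq2 gave 11 of 15 (7.45% of all genes), and a fit of all libraries of the line, in which the groups share an estimate of the spread, gave 15 of 15 and the tRNA mt-Ts1 (8.75% of all genes).

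For mt-Nd5 the HP1a WT libraries read 349, 349 and 348 CPM without Treg and 517, 496 and 696 CPM with Treg, with no overlap. For mt-Cytb they read 1071, 1061 and 1094 CPM without and 1650, 1538 and 2526 CPM with Treg, also with no overlap (0.87 ± 0.22, adjusted p = 0.0546). For mt-Nd6 they read 142, 155 and 156 CPM without and 237, 225 and 535 CPM with Treg. The third Treg library held the highest value of each of these genes, and for mt-Rnr2, which read 2902, 3256 and 3200 CPM without and 4398, 3814 and 12624 CPM with Treg, its value was above that of any other library. Without that library the fold changes were smaller and their errors too: the median was 0.51 (range 0.29 to 0.66), and 12 of 15 members rose, where 8.42% of all genes did. The members that then did not pass were mt-Co3, mt-Nd3 and mt-Nd4l, and mt-Nd4 stood at 0.66 ± 0.08 (adjusted p = 0.00325). Leaving out the second Treg library left 2 members past the threshold, and leaving out any 1 of the other 4 libraries left 0.

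In HP1a KO, mt-Nd6 read 186, 131 and 154 CPM without Treg and 240, 257 and 256 CPM with Treg, without overlap. Its log2 fold change of 0.69 ± 0.13 had the lowest adjusted p of the members there (0.0742), so that 0 of 15 members passed in edgeR's test (0.26% of all genes rose), while 12 had an unadjusted p under 0.05 (15.8% of all genes did) and 7 passed in DESeq2 (2.65% of all genes rose there). The median of the 15 was 0.42. The Treg libraries lay wholly above the others for 10 of 15 members (9.72% of all genes). The member with no difference in mean was mt-Nd3 (-0.03 ± 0.12), at 98.8, 89.8 and 76.5 CPM without and 92.8, 76.1 and 87.9 CPM with Treg, which overlapped.

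In the HP1g line the groups overlapped for all mRNA and rRNA members except mt-Nd3 in HP1g WT. It read 67.8, 74.2 and 70.8 CPM without and 57.6, 49.8 and 65.6 CPM with Treg, wholly lower, as were 1082 of 15903 genes tested. In HP1g WT, mt-Nd6 read 142, 115 and 114 CPM without and 173, 127 and 181 CPM with Treg, and mt-Cytb read 1181, 1209 and 1039 CPM without and 1476, 1151 and 1581 CPM with Treg. No member passed (0.00629% of all genes rose), 2 had an unadjusted p under 0.05 (6.89% of all genes did) and 0 passed in DESeq2; the median was 0.17, with 10 members above and 5 below 0, and for 0 of 15 did the Treg libraries lie wholly above the others (6.6% of all genes). In HP1g KO, mt-Nd6 read 191, 108 and 105 CPM without and 187 and 95.4 CPM with Treg, and both arms held 1 library well above the others. Here again 0 members passed (0% of all genes rose), with 0 at an unadjusted p under 0.05 and 0 in DESeq2, the median was -0.15, and 0 of 15 lay wholly above (13.7% of all genes).

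**Figure D5:**
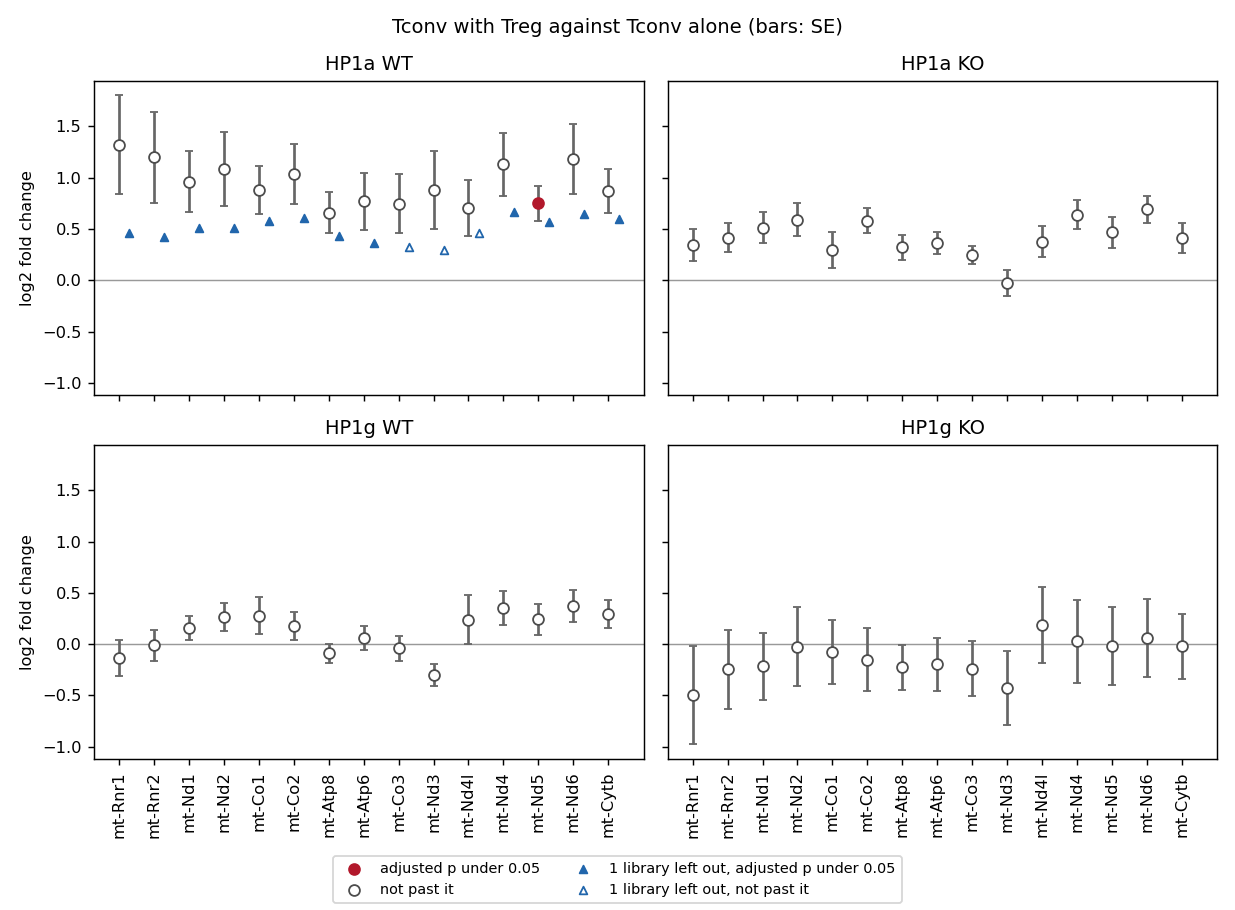
Log2 fold change of each mRNA and rRNA member in Tconv with Treg against Tconv alone, with bars of 1 SE, in each line and genotype; the filled red point has an adjusted p under 0.05, open points do not, and the triangles in the HP1a WT panel leave out the third library with Treg (filled: adjusted p under 0.05). In HP1a WT the points lie between 0.66 and 1.32 and the triangles between 0.29 and 0.66, and in HP1g KO the median is -0.15.

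In the fit over the 4 strata 3 of 15 members rose with Treg (6.75% of all genes rose). They were mt-Nd6 (0.60 ± 0.17, adjusted p = 0.0218), mt-Nd4 (0.56 ± 0.17, adjusted p = 0.0288) and mt-Cytb (0.40 ± 0.12, adjusted p = 0.0352), and the median of the 15 was 0.37. None passed a log2 fold change of 1 (2.93% of all genes did upwards). With the library that the study excluded, 0 passed, and leaving out 1 library gave 1 to 9. The count was 1 without the second HP1a KO Tconv library, without any 1 of the HP1a WT Tconv libraries or without the first HP1g KO library with Treg. It was 9 without the first HP1g KO Tconv library or the second HP1g KO library with Treg, and 7 without the second HP1g WT library with Treg.

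The Treg effect was higher in the HP1a than in the HP1g line for each of the 15 members (median difference 0.66 on the log2 scale), but in the test of this difference 0 members passed (lowest adjusted p 0.264, 0% of all genes passed, and 0 members in DESeq2), while 11 members had an unadjusted p under 0.05 (10.7% of all genes did). In WT cells alone the median difference was 0.78, and 0 passed (lowest adjusted p 0.144, 1.76% of all genes passed, and 0 members in DESeq2), with 7 at an unadjusted p under 0.05 (15.7% of all genes). This test was added after the separate results were seen. Of the nuclear subunits of the respiratory chain, 0 passed in any of the 4 separate comparisons with Treg (11 of 78 had an unadjusted p under 0.05 in HP1a WT, 4 of 78 in HP1a KO, 0 of 77 in HP1g WT and 0 of 78 in HP1g KO, against 22.5%, 15.8%, 6.89% and 7.62% of all genes), with medians of 0.37, 0.05, 0.00 and 0.13, and the genes of mitochondrial genome expression gave 0 as well, with 9, 3, 4 and 1 of 41 at an unadjusted p under 0.05. Myeloid markers summed to 94.1 to 625 CPM in Tconv with Treg against 8.78 to 297 CPM in Tconv, Malat1 and Neat1 to 3029 to 9982 against 2664 to 5119 CPM, and erythroid markers to 2.77 to 6091 against 1.78 to 4618 CPM. B cell markers summed to 121 to 484 CPM with Treg against 92.2 to 217 CPM without, and those of CD8 T or NK cells to 6.98 to 28.9 against 7.60 to 19.1 CPM. The part of these in the result was not tested.

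KO and WT cells were compared within each line and condition to ask whether HP1a or HP1g changes these transcripts. No member differed between KO and WT at an adjusted p under 0.05 in any of the 6 comparisons, nor in a fit over the 3 conditions of each line, in edgeR or DESeq2. In the HP1a line the median log2 fold change of the 15 members was 0.06 in naive cells, 0.19 in Tconv and -0.28 in Tconv with Treg, and 0, 3 and 0 members had an unadjusted p under 0.05, as did 1.87%, 8.53% and 12.1% of all genes (0%, 0.122% and 0.123% of all genes passed the adjusted p). In the HP1g line it was -0.14, 0.15 and -0.18, and 0 members passed the adjusted p, against 0.00669%, 0.0437% and 0% of all genes. There 0 members had an unadjusted p under 0.05, a count given without the share of all genes. Over the 3 conditions the medians were -0.02 for HP1a and -0.08 for HP1g. In these fits 0 members passed the adjusted p in either line, against 0.0944% and 1.3% of all genes. At an unadjusted p under 0.05 there were 0 members as well, again given without the share of all genes.

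The members in the HP1a Tconv libraries show how far such a difference could be seen. For mt-Cytb the WT libraries read 1071, 1061 and 1094 CPM and the KO libraries 1485, 1057 and 1216 CPM, and for mt-Nd1 they read 711, 757.5 and 713 against 1014, 677 and 777 CPM. In both genes the first KO library was the highest and the others fell among the WT values or near them. In Tconv with Treg the third WT library set the sign of the HP1a median, which was 0.16 without it, with 12 of 15 members above 0 and 0 past the threshold. Its mt-Rnr1, for instance, was at 1202 CPM beside 377 and 333 CPM in the other WT libraries and 290, 321 and 391 CPM in the KO libraries.

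Whether the deletions changed the response to activation or to Treg was tested as an interaction in each line. No member passed for activation (0.00587% of all genes in HP1a and 0.0235% in HP1g) or for Treg (0.145% in HP1a and 0% in HP1g). In all 4 tests 0 members had an unadjusted p under 0.05 and 0 passed in DESeq2. The share of all genes at that unadjusted p is not given for these tests. The median interactions were 0.15 and 0.43 for activation and -0.48 and -0.31 for Treg, in HP1a and HP1g.

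The mix of mitochondrial mRNAs shifted little between the conditions, given as medians over the libraries of each condition in percent of all mitochondrial mRNA counts. The largest transcripts, mt-Atp6, mt-Co1 and mt-Co3, held 20.6%, 19.8% and 16.6% in naive cells. In Tconv they held 20.2%, 20.7% and 16.3%, and in Tconv with Treg 19.0%, 20.6% and 14.3%. The shares of mt-Nd4, mt-Co2 and mt-Nd6 were higher in Tconv with Treg (7.22%, 8.13% and 1.68%) than in Tconv (6.14%, 7.20% and 1.499%) and naive cells (5.96%, 6.46% and 1.35%). By line, the mean share of mt-Co2 without and with Treg was 7.59% and 8.36% in HP1a WT, 7.48% and 8.503% in HP1a KO, 6.88% and 6.89% in HP1g WT and 6.92% and 6.76% in HP1g KO, so that it was higher with Treg in the HP1a line but not in HP1g KO. For mt-Nd4 the means were 6.45% and 7.53% in HP1a WT, 6.30% and 7.49% in HP1a KO, 5.51% and 6.22% in HP1g WT and 5.59% and 6.26% in HP1g KO. For mt-Nd6 they were 1.63% and 1.95%, 1.48% and 1.82%, 1.33% and 1.53%, and 1.32% and 1.503%, in the same order. The share of mt-Nd3 was 0.784% in naive cells, 0.741% in Tconv and 0.575% in Tconv with Treg. Over all libraries of a condition the ranges overlapped for each of these genes. In HP1a WT and KO, mt-Co2, mt-Nd4 and mt-Nd6 with Treg lay wholly above those without, while in the HP1g line they overlapped. For mt-Nd4 the ranges were 6.22% to 6.80% and 7.22% to 8.15% in HP1a WT. The share of mt-Nd3 with Treg lay wholly below in HP1a KO, HP1g WT and HP1g KO, and that of mt-Co3 in HP1a WT and HP1g WT. Those of mt-Atp6 in HP1a WT and of mt-Atp8 in HP1g WT also lay wholly below. These shares are a description, with no test, and those of mt-Co1, mt-Co2, mt-Co3, mt-Nd3, mt-Nd4l and mt-Atp6 leave out the counts in the nuclear copies.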

How the data were processed

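RNA-seq libraries were prepared with SMART-Seq v4 PLUS from 10 pg of total RNA and sequenced as paired reads. The values the authors deposited are estimated counts per gene, not scaled or filtered, made by Salmon after adapter trimming (Trim Galore, Cutadapt) and alignment to GRCm39 by STAR.

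Here the estimated counts were rounded and tested with the quasi-likelihood test of edgeR 4.0.16 (R 4.3.3) after TMM scaling and filterByExpr, on the libraries of the groups compared. P-values were adjusted by Benjamini-Hochberg over all genes tested. Members were counted at an adjusted p under 0.05 with any fold, and at an absolute log2 fold change above 1 in addition, the threshold of the study, where stated. Levels are TMM-scaled CPM. The fits over strata gave each line and genotype, or each condition, its own baseline and 1 shared effect. DESeq2 1.42.0, RLE size factors, no filter, a replicate block, all libraries of the line, the nuclear copies added and the omission of each library were tried as alternatives, and the procedure was checked on simulated counts. Sums and shares over members carry no p-value.

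The 13 protein-coding and 2 rRNA members are named whatever their result, a tRNA from a mean of 5 CPM or where called, and of the nuclear list the genes called, at most the 3 highest and 3 lowest, with a mean of at least 5 CPM. The members and lists were chosen with earlier results of these data known. Replicates of a group differed beyond sampling noise in all 34 pairs. Replicate numbers were taken to pair the samples in KO against WT of HP1a naive cells and of HP1g Tconv. There every pair of deviations correlated above 0.1 (0.287 to 0.654 and 0.112 to 0.431). KO against WT in HP1g Tconv with Treg (0.197 to 0.380) and the Treg comparison in HP1g KO (0.10005 to 0.184) also lay above 0.1. With 2 pairs each, they were not taken as paired. The main tests used no pairing, and the replicate block was an alternative only. Sequences and positions are from the GRCm39 genome with the GENCODE annotation. Copies were nuclear genes with an identity of at least 95% over at least 30% of a member. Intervals between libraries reflect this depth and this number of libraries only, and counting error at 37029519 counts is small for all members but the tRNAs. A single column of the file was left out of every comparison, that of the third library of HP1g KO Tconv with Treg, which the study excluded for abnormal GC content, reads in exons and coverage along transcripts.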

Additional observations from a re-analysis of the deposited data

Results flagged for a closer look

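Counts were also assigned to nuclear copies of mitochondrial genes, which the main comparisons do not use and which entered the fits with the copies added. The sequences are identical or nearly so over the aligned bases, and reads shared by a gene and its copy are split between them, so that counts above 0 in the copies are given as values only. The copy held a median of 38.2% of the summed counts for mt-Co3, 37.4% for mt-Nd4l, 34.5% for mt-Co2, 18.2% for mt-Co1, 15.1% for mt-Nd3 and 11.05% for mt-Atp6. The third library of HP1g KO Tconv with Treg, which entered no comparison, held 0.640% of its counts in the mitochondrial rRNAs, against 0.217% to 0.325% in HP1g WT Tconv with Treg. Its mitochondrial mRNAs took 0.165% of its counts, so that the rRNA count was 388% of the mRNA count.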

How the results depend on the processing

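The fall of 14 members over the 4 strata in Tconv against naive cells held under DESeq2 and with each library left out (14 to 15). At the study's threshold, which adds a log2 fold change above 1, the any-fold counts of 10, 5, 5 and 5 members in Tconv against naive cells (HP1a WT, HP1a KO, HP1g WT and HP1g KO), of 14 over the 4 strata, and of 1 and 3 with Treg (HP1a WT and 4 strata) were 0, 0, 2, 0, 0, 0 and 0. Using all libraries of the line gave 3, 1, 9 and 1 members in the same separate comparisons with naive cells. Of all genes, 14.5%, 11.5%, 16.4% and 13.5% fell there. The replicate block gave 8 in HP1a KO (17.3% of all genes fell) and 3 in HP1g WT (9.68%) against naive cells. It gave 0 in HP1a WT with Treg (2.99% of all genes rose). In the other separate comparisons and the interactions the count of calls under the block was within 1.5 times of that without it. DESeq2 gave 10 in HP1g WT against naive cells (12.9% of all genes fell). With Treg DESeq2 gave 11 in HP1a WT (6 at the study's threshold), 7 in HP1a KO and 7 over the 4 strata, where 7.45%, 2.65% and 8.32% of all genes rose by DESeq2, against 4.08%, 0.26% and 6.75% by edgeR. With Treg, no filter gave 5 (2 at the study's threshold) in HP1a WT, 3 in HP1a KO and 1 over the 4 strata. Of all genes, 2.45%, 0.372% and 2.92% rose there. In HP1a WT with Treg, adding the nuclear copies gave 2 (1 at the study's threshold), where 4.10% of all genes rose. All libraries of the line gave 16 (7 at the study's threshold) in HP1a WT, where 8.75% rose. Including the excluded library gave 0 over the 4 strata (2.83% of all genes rose). With the nuclear copies added, mt-Nd4l in HP1a KO Tconv against naive cells turned from 0.06 to -0.34 (adjusted p 0.0488), as its copy holds a large and variable part of its counts. The causes of the other shifts were not tested.

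With 1 library left out, the counts ranged from 8 to 12 in HP1a WT, 1 to 9 in HP1a KO, 1 to 11 in HP1g WT (0 to 4 at the study's threshold) and 1 to 15 in HP1g KO (0 to 2) against naive cells, and from 0 to 12 in HP1a WT, 0 to 2 in HP1a KO and 1 to 9 over the 4 strata with Treg. In HP1a KO against naive cells the count was 9 without the first Tconv library, 1 without the third naive or the third Tconv library and 3 without any 1 of the others. In HP1g WT it was 11 without the second naive library (17.4% of all genes fell). It was 2 without the first Tconv and 1 without the second or the third Tconv library. In HP1g KO it was 15 without the first Tconv library (24% of all genes fell). It was 1 without the second naive, the second Tconv or the third Tconv library and 3 without the first or the third naive library. The 2 members with Treg in HP1a KO appeared without the first Tconv library.

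Without the 10 most abundant other genes the mitochondrial share was 1.82% in naive HP1a WT, 1.76% in naive HP1g KO, 1.30% in HP1a WT Tconv and 1.23% in HP1g WT Tconv. With 1 library left out the mean shares ran, in HP1a WT, HP1a KO, HP1g WT and HP1g KO, from 1.68% to 1.77%, 1.68% to 1.79%, 1.59% to 1.91% and 1.64% to 1.69% in naive cells, from 1.202% to 1.24%, 1.26% to 1.49%, 1.14% to 1.18% and 1.11% to 1.45% in Tconv, and from 1.82% to 2.88%, 1.80% to 1.96%, 1.21% to 1.43% and 0.888% to 1.51% in Tconv with Treg. Only the tRNAs had counts low enough for counting error to matter, and the cause of their low counts was not tested.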
